A study of Tabanus nipponicus with 3 samples.

Results

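The enzymes and transporters that conjugate, hydrolyse and export foreign and endogenous compounds were examined in the midgut of the horse fly Tabanus nipponicus. Members were the unigenes, transcripts assembled from the reads without a genome, whose best protein hit was named glutathione S-transferase, UDP-glycosyltransferase, sulfotransferase, esterase or carboxylesterase, or ATP-binding cassette (ABC) protein. The rule searched the first listed title and used no measured level, and it found 72 of the 8039 unigenes in the table. The samples were midguts of 3 adult females, wild-type and wild-caught, each sequenced on its own, and the libraries were made from total RNA. All 3 libraries form 1 group, called flies 1, 2 and 3, so the data give levels and the spread between individuals and hold no treated or control flies. Feeding state and age were not given in the sources used here. Values are FPKM, read numbers scaled to transcript length and sequencing depth.

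Insects clear plant toxins, insecticides and the by-products of a meal in steps. Oxidation or ester cleavage exposes a reactive group, a transferase then couples the product to glutathione, a sugar or sulfate, and ABC proteins of the cell membrane pump the conjugate out at the cost of ATP. The midgut, which meets ingested compounds first, shares this work with the fat body and the Malpighian tubules. The families also hold members with housekeeping tasks, among them sulfotransferases of the Golgi and ABC proteins of the ribosome, the mitochondrion and the peroxisome.

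The 72 members were 33 ABC proteins, 18 UDP-glycosyltransferases, 11 glutathione S-transferases, 5 sulfotransferases and 5 esterases. No title held the words UDP-glucuronosyltransferase or venom-free cholinesterase-like. For 47 members the closest protein belonged to the black soldier fly, Hermetia illucens, and for the other 25 to other Diptera. Median identity to the best hit was 65.9% over the members and 65.5% over all 7898 unigenes with a hit. Within the families it was 71.2% for ABC proteins, 70.4% for glutathione S-transferases, 64.7% for esterases and 49.65% for UDP-glycosyltransferases, so the names of the last family rest on more distant proteins. The alignment spanned a median of 90.3% of the named protein, and 8 members, 7 of them ABC proteins, spanned less than 50%.

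Some members share a source. A pair of unigenes named probable multidrug resistance-associated protein lethal(2)03659 came from the same assembly component and aligned to residues 1 to 649 and 807 to 1346 of the same protein, with no overlap. Both glutathione S-transferase E14 unigenes aligned to the same protein with 144 residues in common, and a pair of UGT5-like unigenes had 510 residues in common. Reads from such pairs may be divided between them in ways the table does not show.

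Depth was 29308867 to 33797869 recovered reads per fly. The labelled tissue was checked with marker names. The 29 midgut names (trypsins, maltases, aminopeptidase N, carboxypeptidase B, peritrophins, chitin synthase) summed to 13883, 14574 and 9662 FPKM in flies 1, 2 and 3. Names of other tissues were present at lower sums. The 22 Malpighian tubule names summed to 212, 264 and 410 FPKM, the 13 muscle names to 448, 471 and 845, the 12 hemocyte names to 18.3, 30.6 and 119, and the 9 fat body names to 6.75, 24.3 and 97.3. All 4 sums were highest in fly 3, and in bulk tissue fewer cells of a type and less RNA per cell cannot be told apart. The muscle sum is not of muscle alone. It includes a non-muscle myosin heavy chain at 51.1, 51.8 and 57.8 FPKM and an unconventional myosin at 15.3, 6.93 and 6.79. The sum also counts myosin heavy chain 95F unigenes, at 40.1, 39.3 and 32.1 and at 18.7, 20.1 and 17.7 FPKM, whose name does not place them in muscle. The most abundant hemocyte name was a phenoloxidase-activating factor, at 5.86, 10.5 and 55.4 FPKM. Whether the names are limited to their tissues was not tested. The single egg name, chorion protein S38-like, was at 3.28 FPKM in fly 1 and listed at 0 in flies 2 and 3.

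Together the members took 0.238%, 0.240% and 0.295% of all FPKM in flies 1, 2 and 3, or 0.258% ± 0.0322 (SD, n = 3). ABC proteins summed to 648 ± 68.6 FPKM, glutathione S-transferases to 560 ± 153, UDP-glycosyltransferases to 241 ± 27.6, esterases to 137 ± 17.0 and sulfotransferases to 52.7 ± 10.6 (SD, n = 3). Per member the order was different, because the ABC family has many members at low level. The median member stood at 30.7 FPKM among glutathione S-transferases, 17.3 among esterases, 9.93 among ABC proteins, 9.18 among sulfotransferases and 8.37 among UDP-glycosyltransferases, against 8.69 over all unigenes.

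**Figure D1:**
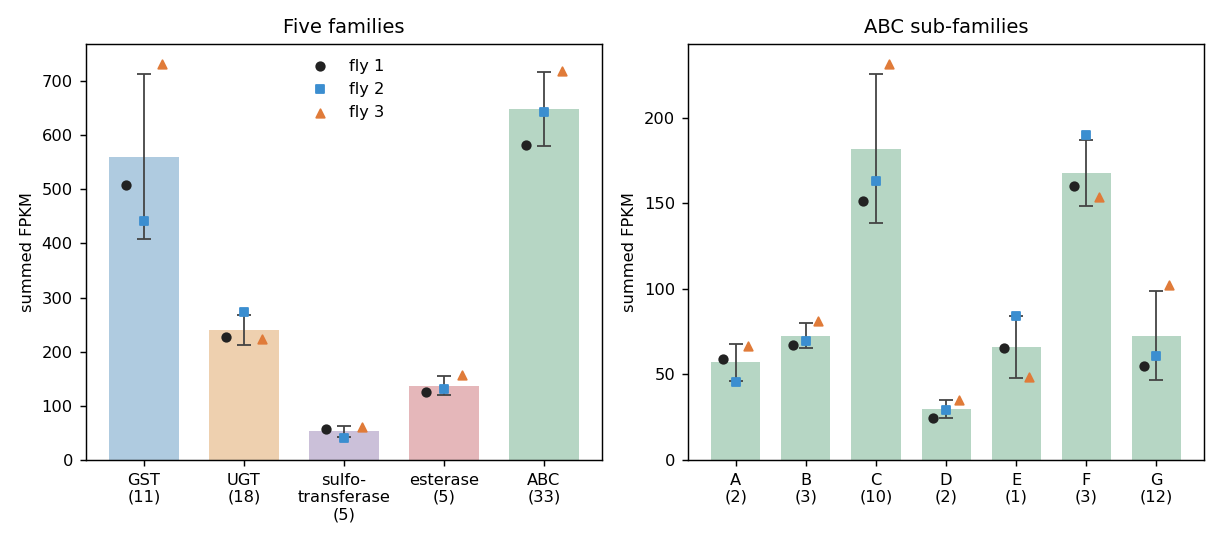
Summed FPKM per fly for the families (left) and for the ABC sub-families (right), with the number of members in brackets. Points are flies, bars are means and error bars are SDs over 3 flies. GST is glutathione S-transferase and UGT is UDP-glycosyltransferase. The families sum to 52.7 to 648 FPKM on average, and sub-families C and F are the highest of the ABC proteins.

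Detection was set at an FPKM of at least 1. All 72 members reached it in at least 1 fly and 61 of the 72 in every fly, against a background of 81.6% of all unigenes. Fly 3 passed for all 72 members, fly 1 for 66 and fly 2 for 63. Of all 8039 unigenes, 7637 passed in fly 3, 6948 in fly 1 and 6898 in fly 2, the same order. A mean of at least 1 FPKM was reached by 69 members and a mean of at least 5 by 50. The other 3 of the 72, below a mean of 1, were a glutathione S-transferase E14 (TRINITY_DN72490_c0_g1_i1), a short fragment named multidrug resistance-associated protein 1 (TRINITY_DN14280_c0_g2_i2) and the heparan sulfate N-deacetylase/N-sulfotransferase.

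Glutathione S-transferases couple electrophilic compounds to glutathione and, in insects, can also bind or reduce lipid peroxides. The most abundant member of all families was a glutathione S-transferase 1-like unigene (TRINITY_DN7532_c0_g1_i4, 926 bases), at 187, 137 and 255 FPKM in flies 1, 2 and 3, which ranked 317 among all unigenes by mean. It alone made up 34.4% of its family's sum. The second, glutathione S-transferase 1 (TRINITY_DN6152_c0_g1_i2), was at 70.3, 82.0 and 155 FPKM. The first lay above the second in 3 of 3 flies, although their ranges overlapped between flies.

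The 5 unigenes with names of the GST 1 type, a name that in Drosophila belongs to the delta class, held 71.8% of the family's FPKM. A unigene named only glutathione S-transferase (TRINITY_DN1587_c0_g1_i20) was at 56.0, 79.9 and 96.8 FPKM. Another 1-like unigene (TRINITY_DN2353_c0_g1_i7) was at 84.8, 42.8 and 53.5 FPKM, and was highest in fly 1 where the others named so far were highest in fly 3. Microsomal glutathione S-transferase 1-like (TRINITY_DN10087_c0_g1_i7), from the membrane-bound branch that is unrelated in structure to the soluble enzymes, stood at 33.2, 43.4 and 48.9 FPKM. The other 6 members of the family had lower means.

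Low glutathione S-transferases included the epsilon names. Both were glutathione S-transferase E14, whose Drosophila namesake is needed for ecdysteroid synthesis, and their mean levels were 3.88 and 0.706 FPKM. The lower was supported by 2, 3 and 26 recovered fragments in flies 1, 2 and 3, so its low values are not distinct from each other at this depth. Glutathione S-transferase theta-3 (TRINITY_DN9879_c0_g1_i4) was at 10.5, 6.03 and 20.2 FPKM. A protein that only holds the C-terminal domain of the family (TRINITY_DN10395_c0_g1_i5) was at 27.9, 18.3 and 19.8 FPKM. No title named an omega, sigma or zeta class.

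Genes that supply glutathione were measured from a separate list of names. Of 9 unigenes, all were detected in every fly, beside 81.6% of all unigenes. Glutamate--cysteine ligase (TRINITY_DN5132_c0_g1_i1), which makes the rate-limiting step of glutathione synthesis, was at 84.0 ± 7.98 FPKM, and glutathione synthetase-like (TRINITY_DN630_c0_g1_i11), which completes it, at 53.0 ± 18.1 (SD, n = 3). The regulatory subunit of the ligase (TRINITY_DN1697_c0_g1_i4) differed more, at 8.43, 10.9 and 39.3 FPKM. Thioredoxin reductase 1 (TRINITY_DN1237_c0_g1_i8), which takes the place of glutathione reductase in Drosophila, was at 26.02 ± 5.85 FPKM (SD, n = 3), and no unigene was named glutathione reductase. Glutathione hydrolases, which cleave extracellular glutathione and its conjugates, had 4 unigenes that summed to 29.6, 28.3 and 69.5 FPKM, and the most abundant (TRINITY_DN12866_c1_g2_i1) was at 13.9, 14.8 and 25.3.

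UDP-glycosyltransferases add glucose or a related sugar to small lipophilic compounds in the endoplasmic reticulum. The family was led by names of the UGT5 type, whose 10 unigenes held 80.0% of its FPKM. A UGT5-like unigene (TRINITY_DN283_c0_g1_i1) was at 68.0, 74.1 and 32.4 FPKM in flies 1, 2 and 3, above every other member of the family in each fly. Its lowest fly lay above the highest fly of the next member by mean, UGT5-like TRINITY_DN5801_c0_g1_i4, at 22.3, 29.7 and 27.3 unscaled FPKM. Not all members lay apart from it. UGT5-like TRINITY_DN5885_c0_g1_i15 reached 34.15 FPKM in fly 2, and UGT5-like TRINITY_DN1517_c0_g1_i19 stood at 31.8 in fly 3.

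Below these the order was not settled by the spread between flies. UGT5-like TRINITY_DN607_c0_g1_i4 stood at 20.7, 29.8 and 25.1 FPKM, UGT5-like TRINITY_DN5885_c0_g1_i15 at 17.7, 34.15 and 15.4, and UGT4-like TRINITY_DN2767_c0_g1_i6 at 17.7, 16.5 and 23.4. Their ranges overlap, so neighbours in this order do not differ beyond their spread. The 6 unigenes named UDP-glucosyltransferase 2 were lower, at a summed 27.8 ± 4.37 FPKM (SD, n = 3). UTP--glucose-1-phosphate uridylyltransferase (TRINITY_DN4_c0_g1_i9), which makes the UDP-glucose that these enzymes use, was at 17.2, 29.4 and 55.2 FPKM, and UDP-glucose 6-dehydrogenase (TRINITY_DN12543_c0_g1_i2), which oxidises it to UDP-glucuronate, at 30.2 ± 5.21 (SD, n = 3).

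The fly with the highest value was counted for the family and for the table as a whole. Of all unigenes that averaged 1 FPKM or more, 12.4% were highest in fly 2. So were 11 of the 18 UDP-glycosyltransferases and 8 of the 10 of the UGT5 type. Fly 3 exceeded the mean of the other flies, in log2(FPKM + 1), for 77.2% of all unigenes, and for 9 of the 18 UDP-glycosyltransferases. The median difference of fly 3 from the others was -0.01 for the family and 0.42 for all unigenes, and that of fly 2 was 0.26 for the family and -0.33 for all. Among tissue markers that averaged 1 FPKM or more, 8 of 20 Malpighian tubule names and 7 of 27 midgut names were also highest in fly 2, and their part in the result was not tested. No test was made of these counts, since unigenes are not replicates and a single fly is not a group.

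Most of these values depend on the scaling between flies. Median-of-ratios scaling, which sets the typical unigene equal between flies by dividing by 0.976, 0.838 and 1.27 in flies 1, 2 and 3, brought the median difference of all unigenes to -0.01 in fly 3 and 0.02 in fly 2, and that of the family to -0.42 in fly 3 and 0.57 in fly 2. On that scale fly 2 was highest for 8 of the 10 unigenes of the UGT5 type, as before scaling. It was highest for 14 of the 18 UDP-glycosyltransferases, against 34.0% of all unigenes, fly 2 exceeded the mean of the others for 14 of 18, against 51.6%, and fly 3 for 5 of 18, against 49.6%. The direction relative to the table was the same on both scales, but this scaling divides all unigenes of a fly by the same number. It moves the family and the table nearly alike, so the agreement is no separate support.

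**Figure D2:**
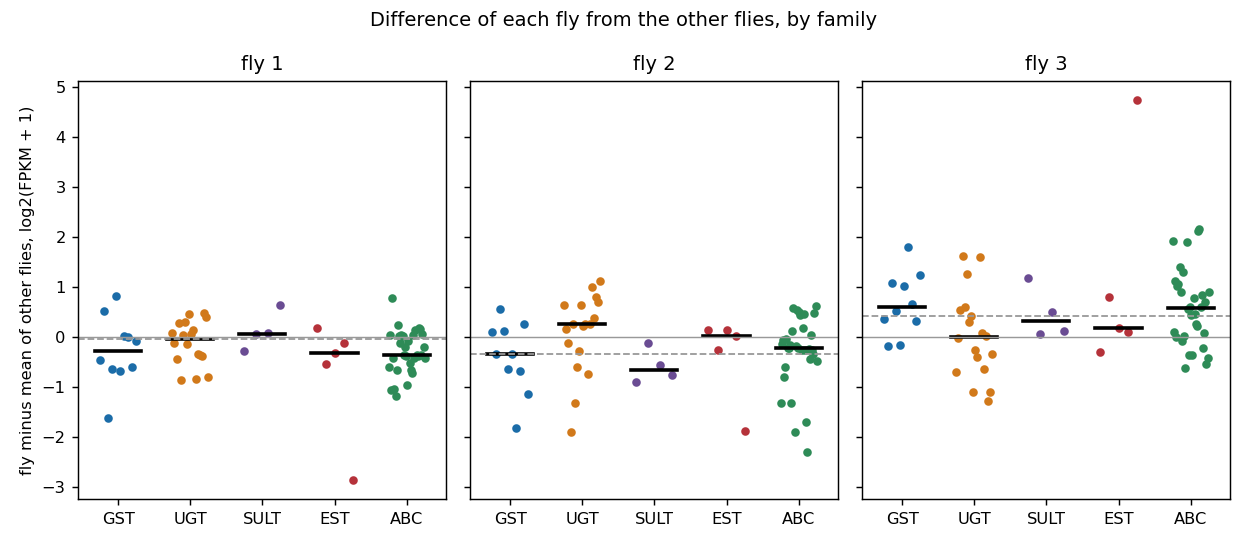
Difference of each fly from the mean of the other flies in log2(FPKM + 1), 1 point per member with a mean FPKM of at least 1. Black bars are family medians, the solid line is 0 and the dashed line is the median of all unigenes. GST, UGT, SULT and EST stand for glutathione S-transferases, UDP-glycosyltransferases, sulfotransferases and esterases. In fly 3 the UGT median is -0.01 and the median of all unigenes is 0.42.

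None of the sulfotransferase names was of the small-molecule kind. All 5 belong to enzymes that place sulfate on glycans or on protein tyrosines in the Golgi, and no name of a cytosolic sulfotransferase of phenols or steroids was found among the members. Carbohydrate sulfotransferase 11 (TRINITY_DN3601_c0_g1_i3), named for enzymes that act on chondroitin, was at 24.4, 17.9 and 29.99 FPKM in flies 1, 2 and 3. Heparin sulfate O-sulfotransferase (TRINITY_DN3543_c0_g1_i15) was at 17.4, 16.0 and 17.4 FPKM, with the lowest SD of log2(FPKM + 1) of all 72 members, 0.07. That rank belongs to the unscaled FPKM, and the SD of single members on the median-of-ratios scale is not given here. Protein-tyrosine sulfotransferase (TRINITY_DN7926_c0_g1_i16) was at 12.2, 5.88 and 9.43 FPKM.

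The ranges of these 3 did not overlap, and their order was the same in every fly. Carbohydrate sulfotransferase 5 (TRINITY_DN2834_c0_g1_i4) and the heparan sulfate N-deacetylase/N-sulfotransferase (TRINITY_DN19034_c0_g1_i16) were near the detection level, at 1.51 ± 1.30 and 0.999 ± 0.412 FPKM (SD, n = 3). The donor of the sulfate is made by bifunctional 3'-phosphoadenosine 5'-phosphosulfate synthase (TRINITY_DN142_c0_g1_i4), at 6.35 ± 1.45 FPKM, and carried into the Golgi by transporters, of which the more abundant (TRINITY_DN6545_c0_g1_i2) was at 9.91 ± 1.99 (SD, n = 3).

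Esterases of the carboxylesterase type split ester bonds of lipids, hormones and insecticides, and esterases named B1, E4 and FE4 are known from insecticide-resistant mosquitoes and aphids, where extra gene copies raise their amount. Esterase B1-like (TRINITY_DN24520_c0_g1_i8) was the most abundant, at 72.4, 71.2 and 57.9 FPKM in flies 1, 2 and 3. Esterase FE4-like (TRINITY_DN5528_c0_g1_i6) was at 36.6, 39.1 and 40.4 FPKM. A second esterase B1 (TRINITY_DN5182_c0_g1_i22) was at 14.6, 18.4 and 18.8 FPKM.

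The ranges of these 3 lay apart and each fly gave the same order. Their SDs of log2(FPKM + 1) between flies were 0.18, 0.07 and 0.19, against a median of 0.38 over all unigenes that averaged 1 FPKM or more. After median-of-ratios scaling the family's median SD was 0.32 in place of 0.19, and that of all unigenes was also 0.32, so on that scale the family was no steadier than the table. Carboxylesterase 5A-like (TRINITY_DN25301_c0_g1_i2), a fragment that spans 26.6% of its best hit, was at 1.71 ± 0.946 FPKM (SD, n = 3).

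Esterase E4-like (TRINITY_DN9629_c0_g1_i2, 2003 bases) was unlike them, at 0.125, 0.768 and 36.8 FPKM in flies 1, 2 and 3. The value of fly 3 was of the size of the abundant esterases, while flies 1 and 2 were below the detection level. The recovered fragments were 4 in fly 1, with an exact Poisson interval of 1.09 to 10.2 at 95%, 26 in fly 2 and 1080 in fly 3, so counting error alone does not span the difference. Between its highest and lowest fly it differed 33.6-fold in FPKM + 1, the widest of all members.

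Esterase names outside the rule were set beside it, chosen after their values were seen. Juvenile hormone esterase (TRINITY_DN380_c0_g1_i5), from the family that inactivates juvenile hormone, was the most abundant of them at 227 ± 33.4 FPKM (SD, n = 3), above every esterase member. A second juvenile hormone esterase (TRINITY_DN2859_c0_g1_i4) was at 0.258, 2.68 and 32.4 FPKM and acetylcholinesterase-like (TRINITY_DN534_c0_g1_i12) at 0.487, 9.50 and 30.1, with the lowest value in fly 1 and the highest in fly 3, as for esterase E4-like. There were 12 such unigenes that averaged 5 FPKM or more, and 8 of them spanned 4-fold or more in FPKM + 1, beside 9.42% of all unigenes. Of those 8, 6 were lowest in fly 1 and highest in fly 3, and a glutactin (TRINITY_DN1874_c0_g1_i2) was lowest in fly 2. Another acetylcholinesterase-like unigene (TRINITY_DN26601_c0_g1_i4) had the opposite order, at 12.02, 7.003 and 1.95 FPKM. Of all unigenes within the same limits 87.9% were highest in fly 3.

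Some markers of other tissues had the same lowest and highest fly. Of 9 fat body names, the 6 that averaged 1 FPKM or more were lowest in fly 1 and highest in fly 3. The filter bears on this count, since Vitellogenin-1 (TRINITY_DN24674_c0_g1_i4) passed it only through fly 3, at 0.141, 0.400 and 3.33 FPKM. Below it, hexamerin-1.1-like (TRINITY_DN16556_c0_g1_i1) had the opposite order, at 1.73, 0.306 and 0.235 FPKM, and so did vitellogenin-1-like (TRINITY_DN25007_c0_g1_i1), at 0.790, 0.426 and 0.184. Vitellogenin-A1-like (TRINITY_DN135_c1_g1_i9), also below it, rose from fly 1 to fly 3, at 0.128, 0.633 and 1.87. Of all 7384 unigenes that averaged 1 FPKM or more, 1926 were lowest in fly 1, 66.1% were highest in fly 3 and 12.4% in fly 2. Of 20 names of the Malpighian tubule with that average, 12 were lowest in fly 1, 11 were highest in fly 3 and 8 in fly 2. The most abundant of these, xanthine dehydrogenase (TRINITY_DN6180_c0_g1_i3), which makes uric acid, was at 69.9, 88.7 and 57.9 FPKM. Uricase (TRINITY_DN8991_c0_g1_i5), a marker of Malpighian tubules, was at 0.045, 23.2 and 146 FPKM, the first value from 1 recovered fragment. Apolipophorins (TRINITY_DN9332_c0_g1_i15), made by the fat body, were at 0.619, 13.8 and 64.1 FPKM. From fly 1 to fly 2 uricase, apolipophorins and esterase E4-like all rose. Esterase E4-like went from 0.125 to 0.768 FPKM, or 4 and 26 recovered fragments, below the detection level in both. The part of tissues beside the midgut in the esterase values was not tested.

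**Figure D3:**
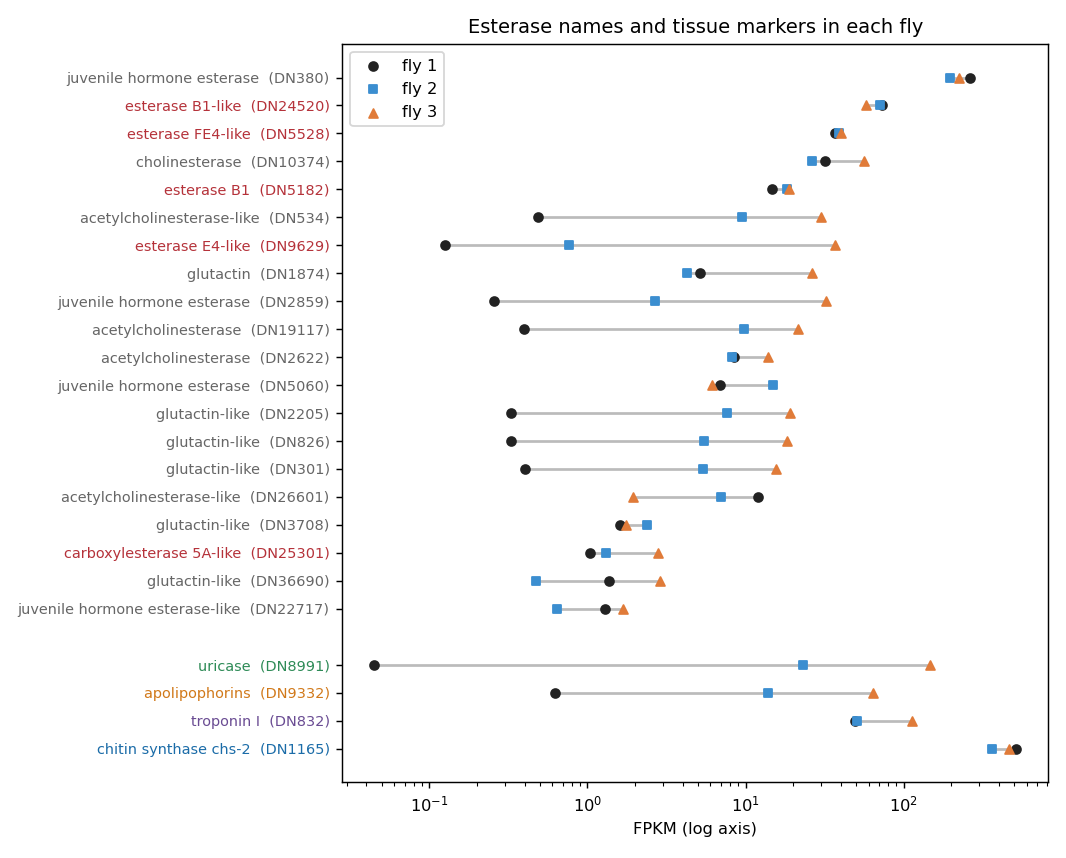
FPKM on a log axis of esterase members (red names), of other esterase names (grey names) and of markers of Malpighian tubule (uricase), fat body (apolipophorins), muscle (troponin I) and midgut (chitin synthase). Each tissue is shown by 1 picked name. Uricase has the widest spread of the Malpighian tubule names, and the most abundant of them, xanthine dehydrogenase, was highest in fly 2 and is not shown. Symbols are flies and grey bars span the lowest to the highest. Esterase E4-like runs between 0.125 and 36.8 FPKM, and esterase FE4-like between 36.6 and 40.4.

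ABC proteins share an ATP-binding domain, and those of sub-families A, B, C, D and G carry it beside membrane segments, while E and F have none and act on ribosomes. Sub-families E and F, with 4 of the 33 members, held 36.1% of the family's FPKM. ABC sub-family F member 2 (TRINITY_DN2561_c0_g1_i8) was the most abundant, at 94.9, 134 and 88.3 FPKM in flies 1, 2 and 3. Sub-family E member 1 (TRINITY_DN2179_c0_g1_i2), which splits ribosomes after translation ends, was at 65.6, 84.2 and 48.3 FPKM. The range of the first lay above that of the second, and both were highest in fly 2. With E and F left out, a choice made after the values were seen, the 29 other ABC proteins summed to 357, 369 and 517 FPKM.

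Sub-family C, which exports glutathione, glucuronide and sulfate conjugates, was the largest membrane group by level, with 10 members at 151, 163 and 232 FPKM in sum. Multidrug resistance-associated protein 1 (TRINITY_DN8215_c0_g1_i37) was at 48.4, 47.0 and 86.0 FPKM. A probable multidrug resistance-associated protein lethal(2)03659 (TRINITY_DN4323_c0_g1_i1) was at 48.4, 61.8 and 42.3 FPKM. Which of them was higher differed between flies. Multidrug resistance-associated protein 4-like (TRINITY_DN8993_c0_g1_i3) followed at 30.75, 30.85 and 50.6 FPKM, and member Sur, whose vertebrate namesake regulates potassium channels and is not an exporter, was at 2.80 ± 1.69 (SD, n = 3).

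Other members serve organelles. Sub-family B was represented by 3 names, all mitochondrial, with a median between-fly SD of 0.13 in log2(FPKM + 1). Member 6 (TRINITY_DN2419_c0_g1_i5), named for porphyrin transport, was at 38.4 ± 9.23 FPKM, member 7 (TRINITY_DN824_c0_g1_i2), which serves the export of sulfur for iron-sulfur clusters, at 21.8 ± 2.09, and member 10 (TRINITY_DN20218_c0_g1_i12) at 12.5 ± 0.748 (SD, n = 3). Sub-family D, which brings fatty acids into the peroxisome, had 2 members that summed to 24.6, 29.3 and 35.2 FPKM. Multidrug resistance protein homolog 49, a full B transporter of the P-glycoprotein type, carries a name outside the rule and was not counted.

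Sub-family G, relatives of the Drosophila eye pigment transporter white and of sterol transporters, had the most members and low levels. Its 12 members summed to 54.8, 60.9 and 102 FPKM, and 8 of 12 were detected in every fly, beside 81.6% of all unigenes. The highest by mean were ABC sub-family G member 4 (TRINITY_DN5787_c0_g1_i12) at 14.8 ± 3.96 FPKM and ABC transporter G family member 23 (TRINITY_DN7152_c0_g1_i6) at 12.1 ± 11.9 (SD, n = 3). Fly 3 exceeded the mean of the other flies for 11 of the 12, against 77.2% of all unigenes. Sub-family A member 3 (TRINITY_DN8518_c0_g1_i17), from a group that moves lipids, was at 53.3, 43.7 and 51.4 FPKM.

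**Figure D4:**
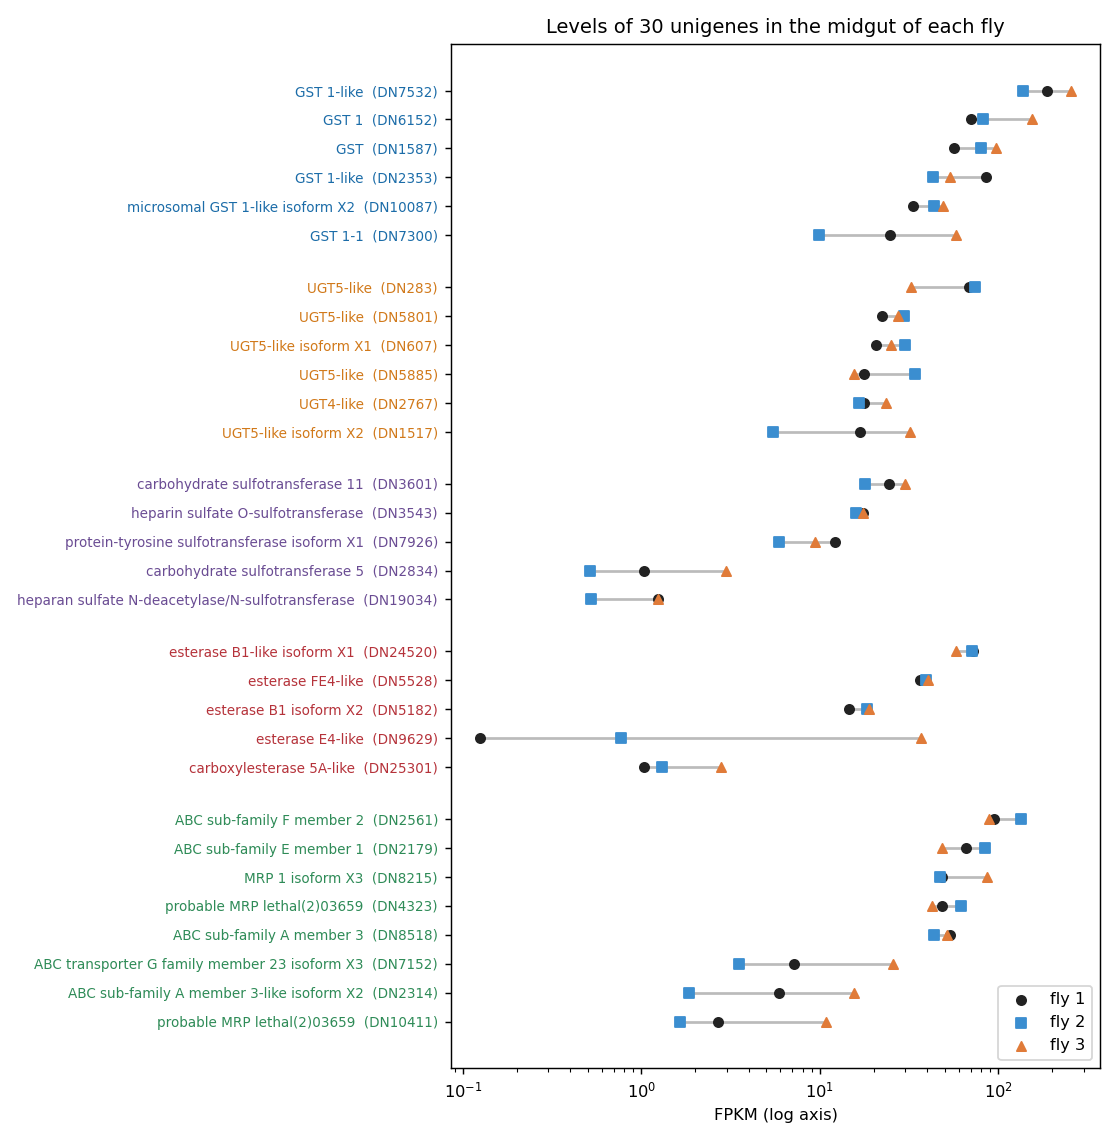
FPKM on a log axis of 30 members, namely the 5 with the highest mean FPKM of each family and all variable members. Symbols are flies and grey bars span the lowest to the highest value. Label colours mark the families, and MRP stands for multidrug resistance-associated protein. Esterase E4-like spans the widest range, 0.125 to 36.8 FPKM, and heparin sulfate O-sulfotransferase stays between 16.0 and 17.4.

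Variable unigenes were those with an average of 5 FPKM or more and a gap of 4-fold or more, in FPKM + 1, between the extreme flies. Of the 50 members with that average, 6 were variable, beside 9.42% of all unigenes. All 6 had their highest value in fly 3. Of all unigenes with that average 8.28% were both variable and highest in fly 3, and of the variable unigenes 87.9% were highest in fly 3. A share near the background is no result about the families. Without fly 3 none of 47 members was variable, beside 3.08% of all unigenes, without fly 2 the count was 1 of 49, beside 5.45%, and without fly 1 it was 7 of 51, beside 7.77%. After median-of-ratios scaling 3 of 49 members stayed variable, esterase E4-like, ABC transporter G family member 23 and ABC sub-family A member 3-like, beside 7.63% of all unigenes.

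In 5 of the 6 the lowest value lay in fly 2, as it did for 4246 of 7384 unigenes averaging 1 FPKM or more. Glutathione S-transferase 1-1 (TRINITY_DN7300_c0_g2_i2), which bears the name of a Drosophila enzyme that acts on DDT, was at 24.8, 9.91 and 57.5 FPKM. UGT5-like TRINITY_DN1517_c0_g1_i19 was at 16.8, 5.46 and 31.8 FPKM, 1 of 7 members of its family that were highest in fly 3. The counting error of the values of both unigenes was at most 6.67% in any fly.

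The other 3 were ABC proteins. ABC transporter G family member 23 (TRINITY_DN7152_c0_g1_i6) was at 7.18, 3.54 and 25.7 FPKM, ABC sub-family A member 3-like (TRINITY_DN2314_c0_g1_i8) at 5.89, 1.84 and 15.5, and a probable multidrug resistance-associated protein lethal(2)03659 (TRINITY_DN10411_c0_g1_i3) at 2.67, 1.64 and 10.8. All had the order fly 3, fly 1, fly 2. The divisors of the median-of-ratios scaling, taken from the whole table, have the same order, at 1.27, 0.976 and 0.838. Another ABC transporter G family member 23 (TRINITY_DN7672_c0_g1_i25), named after its values were seen, was at 3.26, 0.373 and 9.75 FPKM and fell outside the call because its mean was below 5. Of the 20 Malpighian tubule names that averaged 1 FPKM or more, 7 were lowest in fly 2 and 8 were highest there. Of all 7384 unigenes with that average, 4246 were lowest in fly 2 and 913 were highest there. The part of Malpighian tubules in the result was not tested.

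**Figure D5:**
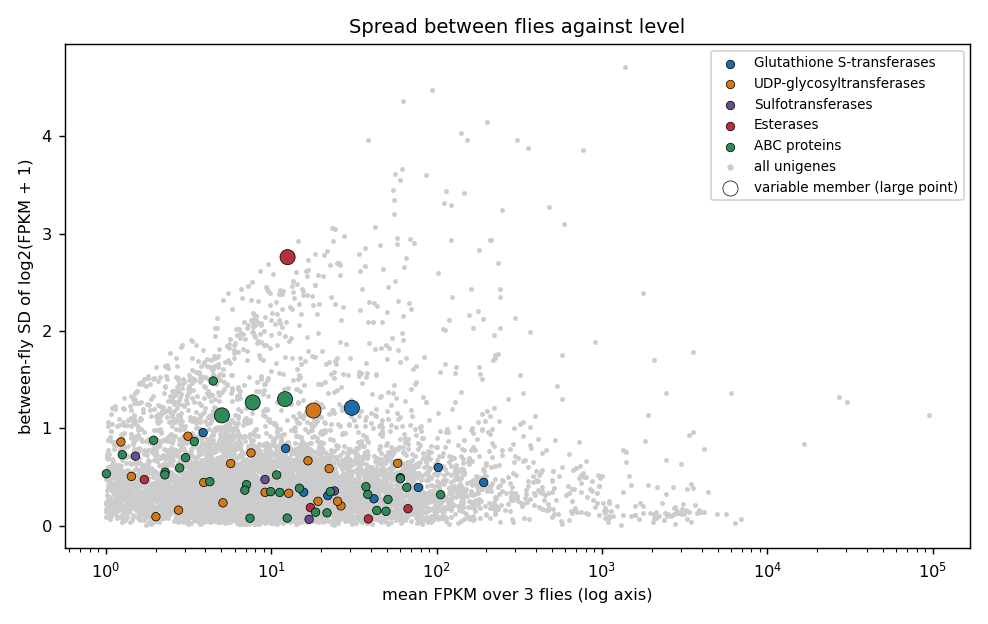
Between-fly SD of log2(FPKM + 1) against mean FPKM on a log axis, for members (coloured by family) and for every unigene averaging 1 FPKM or more (grey). Large points are the 6 variable members. Members have a median SD of 0.45 against 0.38 for all unigenes.

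For members averaging 1 FPKM or more, the median SD of log2(FPKM + 1) between flies was 0.47 for glutathione S-transferases, 0.48 for UDP-glycosyltransferases, 0.42 for sulfotransferases, 0.19 for esterases and 0.41 for ABC proteins. Fly 3 exceeded the average of flies 1 and 2 for 50 of these 69 members, beside 77.2% of all unigenes. Fly 2 exceeded the average of flies 1 and 3 for 29 of 69, beside 22.9%, and fly 1 that of flies 2 and 3 for 28 of 69, beside 44.3%. The median difference of fly 3 was 0.60 for glutathione S-transferases and 0.58 for ABC proteins, beside 0.42 for all unigenes. After median-of-ratios scaling these were 0.11 and 0.10, beside -0.01.

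Ratios between families were taken within each fly. Summed glutathione S-transferases stood at 2.24, 1.62 and 3.28 times UDP-glycosyltransferases in flies 1, 2 and 3, at 4.07, 3.37 and 4.67 times esterases and at 9.01, 10.8 and 11.99 times sulfotransferases. Each of these ratios was above 1 in 3 of 3 flies. The mean log2 ratio to esterases was 2.00, and it was 0.13 with the wider esterase names and 0.44 with the median member, so its size depends on which esterases are counted. Against ABC proteins the ratios were 0.871, 0.686 and 1.02, above 1 in 1 of 3 flies, and the mean log2 ratio was -0.24 ± 0.29 (SD, n = 3). With sub-families E and F left out that mean was 0.42, so this direction depends on which ABC proteins are counted. An exact sign-flip permutation test over 3 flies, two-sided, cannot give a p below 0.25, so none of the 4 ratios could pass a threshold of 0.05.

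Regulators of detoxification genes were measured from the same separate list. Segmentation protein cap'n'collar (TRINITY_DN987_c0_g1_i3), the fly relative of the oxidative stress factor Nrf2, was at 33.4, 29.0 and 50.9 FPKM. A homolog of its inhibitor, kelch-like ECH-associated protein 1B (TRINITY_DN6623_c0_g1_i4), was at 4.61, 4.71 and 5.01 FPKM, and hormone receptor HR96 (TRINITY_DN3043_c0_g1_i15), a xenobiotic receptor in Drosophila, at 6.01, 6.66 and 7.99. The aryl hydrocarbon receptor nuclear translocator homolog (TRINITY_DN1601_c0_g1_i23) was at 16.4 ± 4.53 FPKM (SD, n = 3).

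Among other hydrolases of the list, juvenile hormone epoxide hydrolase 1-like (TRINITY_DN1660_c0_g1_i9) was at 27.0 ± 5.02 FPKM, arylsulfatase B-like (TRINITY_DN15696_c0_g1_i7) at 7.81 ± 2.23 and beta-glucuronidase (TRINITY_DN11645_c0_g1_i14), which can undo glucuronide conjugates, at 3.02 ± 1.64 (SD, n = 3). The most abundant acetylcholinesterase name was TRINITY_DN534_c0_g1_i12, given above. Of the whole list of 33 unigenes, 26 were detected in every fly, beside 81.6% of all unigenes. Of the 27 that averaged 5 FPKM or more, 6 were variable, beside 9.42% of all unigenes. Of those 6, 4 were names of juvenile hormone esterase or acetylcholinesterase.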

How the data were processed

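Midgut RNA of 3 individual flies was sequenced, and 1 deposited table was used. Per the file headers it holds the authors' FPKM per unigene and fly, the unigene length and the best protein hit with its percent of identical residues, also as deposited by the authors. Unigene identifiers follow the pattern of Trinity. For the assembler version, protein database, aligner and counting tool the entry is: not given in the sources used here. In the table the column of fly 3 is numbered 4 and was matched through the labels' description.

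FPKM times length summed to 1e+09 in each fly. Divided by the smallest such product of that fly, these gave whole numbers, within 0.001, for 97.1% to 97.3% of unigenes, the recovered reads. Fragments were taken as 2 reads. Counting error was below 10% in every fly for 25 of the 30 named members, and intervals and floors (3 fragments) cover counting error only. FPKM values are not counts, so no count model was used, and levels were compared as log2(FPKM + 1), which understates differences of low unigenes. Calls and scaling were tested on simulated data. Python 3.11.15, numpy 2.4.6, pandas 2.3.3 and scipy 1.17.1 were used.

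Named members are the 5 of highest mean FPKM in each family and all variable members. From the separate list of supply genes, hydrolases and regulators, the most abundant unigene of each function is named, except 1 that is not reported here, and others are named where stated or where they complete a group. Members and lists were chosen with earlier results of these data known. With 1 group, no comparison between groups was made. Other scalings, filters, pseudocounts, memberships and each left-out fly were tried. Sequences of the unigenes were not used here.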

Additional observations from a re-analysis of the deposited data

How the results depend on the processing

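No paired analysis was possible because all 3 flies belong to 1 group. Shares of all FPKM depend on the denominator and on single members. As a share of reads, which weights long transcripts, all families took 0.420%, ABC proteins 0.242%, UDP-glycosyltransferases 0.0575% and esterases 0.0298%. With the 10 most abundant unigenes of the table left out of the total, all families took 0.379%, ABC proteins 0.150%, glutathione S-transferases 0.128%, UDP-glycosyltransferases 0.0565%, esterases 0.0318% and sulfotransferases 0.0121%. Without the most abundant member of each, ABC proteins took 0.0853%, glutathione S-transferases 0.0577%, UDP-glycosyltransferases 0.0287%, esterases 0.0110% and sulfotransferases 0.00451%. The next 2 choices were made after seeing the data. Without ABC sub-families E and F the share was 0.221% for all families and 0.0651% for ABC proteins, and with the wider esterase names it was 0.316% for all families and 0.0795% for esterases. The number of variable members was 13 of 50 at a 2-fold threshold, for which no share of all unigenes was computed. After median-of-ratios scaling it was 3 of 49, beside 7.63% of all unigenes. With the wider esterase names it was 14, of which 8 came from the 12 added names that averaged 5 FPKM or more, beside 9.42%. When 1 fly was left out it ran between 0 of 47, beside 3.08%, and 7 of 51, beside 7.77%. Leaving out 1 fly moved the median SD of log2(FPKM + 1) within 0.26 to 0.46 for all families and 0.22 to 0.43 for all unigenes. The range was 0.23 to 0.51 for glutathione S-transferases, 0.15 to 0.53 for UDP-glycosyltransferases, 0.20 to 0.46 for sulfotransferases, 0.10 to 0.24 for esterases and 0.22 to 0.48 for ABC proteins. Median-of-ratios scaling gave 0.41, 0.58, 0.32, 0.32 and 0.50 for these families in the same order. It gave 0.45 for all families, beside 0.32 for all unigenes. That scaling also set the median difference of fly 3 to -0.076 for all families, 0.11 for glutathione S-transferases, -0.42 for UDP-glycosyltransferases, -0.13 for sulfotransferases, -0.28 for esterases and 0.10 for ABC proteins, and that of fly 2 to 0.42 for esterases and 0.57 for UDP-glycosyltransferases. The log2 ratio of glutathione S-transferases over ABC proteins was -0.24 as reported, 1.64 when medians over members replaced sums and 0.42 without sub-families E and F, and the other 32 of 34 repeats of the ratios kept their direction, although the ratio over esterases was 0.13 with the wider esterase names. Beyond the construction of each alternative, the cause was not tested. Depth limits the members below 1 FPKM, which rest on a few fragments in some flies.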
